A study of Homo sapiens with 12 samples.

Results

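The proteasome genes of the human genome were followed through untreated and extract-treated cells of the breast cancer lines MDA-MB-231 and HCC1937. They were taken by name, as every gene whose symbol starts with PSMA to PSMG followed by digits, a rule that uses no measured value. It found 48 of the 19516 genes with a symbol, and 46 of these had enough reads to be tested. Of the other members, PSMA8, a testis form of an alpha subunit, had 0 reads in all 12 libraries, and PSMB11, the thymus-specific catalytic subunit, had 2 reads in 1 library.

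RNA sequencing counts were available for 4 groups of 3 libraries. The MDA-MB-231 groups were grown in DMEM, without extract (libraries E1, E2 and E3) or with 140 µg/mL of an aqueous extract of the succulent plant Kalanchoe pinnata for 72 h (E7, E8 and E9). The HCC1937 groups were grown in RPMI, without extract (E25, E26 and E27) or with 66 µg/mL of the same kind of extract for 72 h (E31, E32 and E33). Line, medium and concentration change together and cannot be told apart, and the labels give every sample as wild type. Nothing in the labels states that replicate libraries came from independent cultures, so the p-values reflect library-to-library spread, which may be technical.

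The proteasome is the large protease that degrades proteins tagged with ubiquitin. Its core is a barrel of outer rings of alpha subunits, which gate the entrance, and inner rings of beta subunits, of which PSMB5, PSMB6 and PSMB7 carry the active sites. Interferon-inducible subunits (PSMB8, PSMB9 and PSMB10) can take their places and give the immunoproteasome, which favours peptides for antigen presentation. Regulatory particles sit on the ends of the barrel: an ATPase ring (PSMC) unfolds substrates, non-ATPase subunits (most PSMD) bind and deubiquitinate them, and the activators (PSME) and the inhibitor PSMF1 compete for the same ends. Cancer cells depend strongly on the proteasome, and cells whose proteasome is impaired raise nearly all subunit genes together through the transcription factor NFE2L1.

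Library totals ran from 16170545 to 31337431 counts, and 3 counts in a library correspond to 0.0990 to 0.213 CPM (counts per 1000000 counts of the library, scaled here by the TMM library factors). Of 5 epithelial markers checked against the epithelial label, the keratins KRT8 and KRT18 were read in both lines at 264 CPM or more. KRT19 was low in the controls of MDA-MB-231 and HCC1937 (0.949 and 5.04 CPM), and EPCAM stood at 12.1 and 173 CPM. CDH1, the epithelial cadherin, had 0 reads in all MDA-MB-231 libraries, in which the mesenchymal filament gene VIM stood at 3736 CPM in controls, against 13.9 CPM in HCC1937 controls. The leukocyte markers PTPRC and CD3E stayed under 0.43 CPM in every library, and CD14 reached at most 7.23 CPM. The endothelial markers PECAM1 and CDH5 stood at 12.7 and 9.84 CPM in HCC1937 controls, and at 0.931 and 0 CPM in MDA-MB-231 controls. Of the fibroblast markers, COL1A1 stood at 21.3 CPM in MDA-MB-231 controls and 18.8 CPM in HCC1937 controls, and PDGFRB at 3.26 and 0.175 CPM. In bulk RNA, fewer cells that express a gene and less RNA per cell cannot be told apart.

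Library E7 stood apart from the other MDA-MB-231 extract libraries. Its TMM factor was 0.762, against 0.987 and 0.988 in E8 and E9. Of the 46 members tested, 41 were higher in E7 than in the mean of E8 and E9, by a median of 0.74 on the log2 scale, with extremes of -0.69 for PSMD2 and 1.58 for PSMA2. Across members this excess was larger for genes with shorter transcripts (Pearson's r -0.58, Spearman's rho -0.59 over 46 genes of the same libraries, a description). The same values are not given for all genes, so whether the excess is particular to proteasome genes was not tested. A member's coefficient of variation had a median of 31.6% among E7, E8 and E9, and of 2.29% to 3.10% within each of the remaining groups. All groups share 1 estimate of the spread, so E7 also enters the error of the HCC1937 comparisons, and the counts of members by line, by class and by partner list in MDA-MB-231 are given with and without E7.

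**Figure D1:**
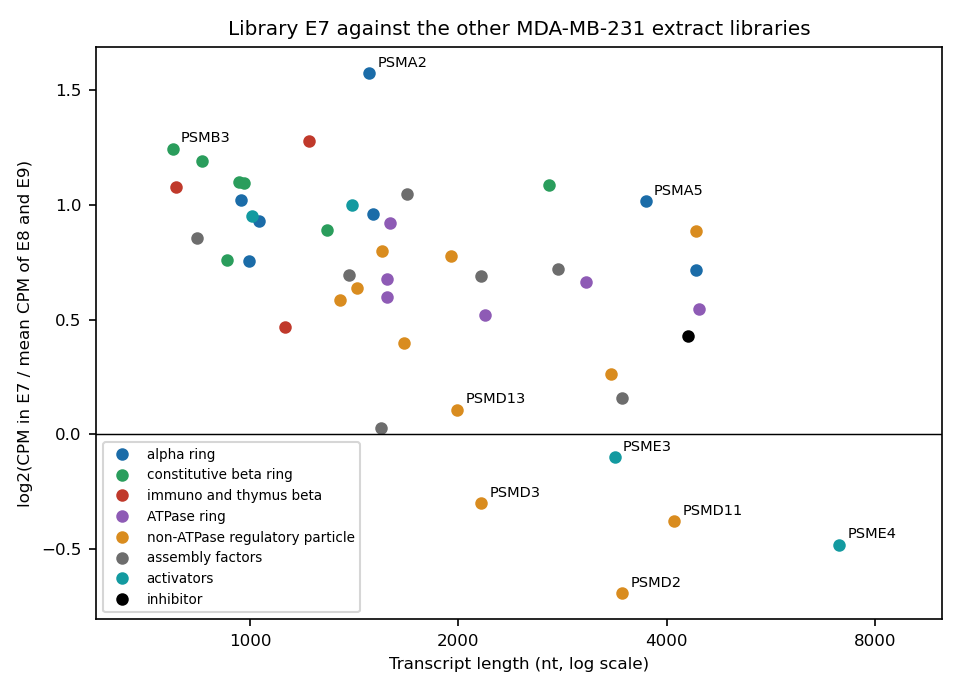
Each point is 1 of the 46 tested proteasome genes, coloured by role, with its transcript length in nucleotides on a log axis and, on the vertical axis, log2 of its CPM in library E7 over the mean CPM of E8 and E9. Most points lie above 0, and the 5 below it include PSMD2, PSMD3, PSMD11, PSME3 and PSME4.

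Stretches upstream of the members' RefSeq starts are shown before their values. Subunit genes are known to be switched on through short elements in such stretches. RefSeq promoter windows on GRCh38.p14, from 250 bases before to 50 bases after a RefSeq start, were found for 42 of the 48 members. PSMA7, PSMB1, PSMB6, PSMB7, PSMD4 and PSMG3 had no entry. For each member the window nearest the start of the coding transcript used for length was taken. The RefSeq start lay 237 bases from that transcript start in PSMB10, 400 in PSMG1 and 611 in PSME2. Among members with no site printed here it lay up to 2729 bases away, in PSMC2, followed by 616 in PSMG2 and 532 in PSMD2. A printed site can lie within the span of the gene, as in PSMB9, PSMB10, PSMG1 and PSMG4. The letters TGACNNNGC, the core of the antioxidant response element to which NFE2L1 and its relatives bind with small MAF proteins, were searched on both strands. They occurred in 10 of the 42 windows (23.8%) and in 10.9% of the 35116 windows of all genes. The 6 members printed here are the ones on which later comparisons turn, and the capitals mark the match. In PSMB9 the capitals are the match on the opposite strand.
PSMB3, chr17:38752627-38752655, plus strand: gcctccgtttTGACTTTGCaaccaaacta
PSMD3, chr17:39980760-39980788, plus strand: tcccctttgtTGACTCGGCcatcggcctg
PSMD12, chr17:67366724-67366752, minus strand: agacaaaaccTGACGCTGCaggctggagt
PSMG1, chr21:39183616-39183644, minus strand: gcccagggcaTGACAGCGCgggcgggcgg
PSMD5, chr9:120843038-120843066, minus strand: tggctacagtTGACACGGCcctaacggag
PSMB9, chr6:32854034-32854062, plus strand: gggcggggctGCCTCGTCActtgtctcgg
The other members with these letters were PSMD9, PSME1, PSME2 and PSME4.

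The letters GAAA, any 2 bases and GAAA again, an interferon-type repeat of the kind bound by IRF proteins, occurred in 5 of the 42 windows (11.9%), on either strand, against 3.02% of all windows. Besides PSMA4 and PSMB4 they were found in PSMB10, an immunoproteasome subunit, PSME2, an interferon-inducible activator, and PSMG4, an assembly chaperone, and these 3 carry the same 10 letters, in capitals.
PSMB10, chr16:67936852-67936881, minus strand: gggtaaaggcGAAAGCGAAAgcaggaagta
PSME2, chr14:24146619-24146648, minus strand: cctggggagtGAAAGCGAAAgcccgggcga
PSMG4, chr6:3258904-3258933, plus strand: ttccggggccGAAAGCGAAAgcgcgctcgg
The 240 bases before the start of PSMB5, the catalytic subunit with the largest rise in HCC1937, hold neither of these patterns. They hold CCAAT, the box bound by NF-Y, marked in capitals, which occurred in 42.9% of the members' windows and 32% of all windows on either strand.
PSMB5, chr14:23035231-23035470, minus strand: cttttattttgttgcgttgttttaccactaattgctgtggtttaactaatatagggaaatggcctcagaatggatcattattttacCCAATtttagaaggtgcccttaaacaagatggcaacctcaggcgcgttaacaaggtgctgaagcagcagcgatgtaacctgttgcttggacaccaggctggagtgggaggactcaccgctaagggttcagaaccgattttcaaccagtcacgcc
A match is a run of letters and shows no binding. The members with TGACNNNGC rose in 7 of 10 cases in MDA-MB-231 and in 4 of 10 in HCC1937. The tested members whose windows lack it rose in 22 of 30 and 19 of 30, and 33% and 32.7% of all genes rose. Those lacking it include PSMC2, PSMG2 and PSMD2, whose windows lie far from the transcript start. Median log2 fold changes with and without the letters were 0.77 and 0.99 in MDA-MB-231, and 0.31 and 0.77 in HCC1937. With the length and GC offset described below they were 0.47 and 0.79, and 0.86 and 0.74, so the order in HCC1937 depends on the fit.

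Most proteasome genes took a larger share of the RNA of extract-treated cells in both lines. Together the members held 0.566% ± 0.00817 of the counts in MDA-MB-231 controls (SD, n = 3) and 0.920% ± 0.0698 with extract. In HCC1937 they held 0.658% ± 0.0107 of the counts in controls and 1.05% ± 0.00294 with extract. All extract libraries lay above all controls of their line. These shares use no scaling factor and no model.

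In MDA-MB-231, 35 of the 46 members rose, 2 fell (PSMC6 and PSME4) and 9 did not pass the test at an adjusted p of 0.05 (edgeR's quasi-likelihood test, Benjamini-Hochberg over all 14133 genes tested). Among all genes tested 33% rose and 32.8% fell. The members' median log2 fold change was 0.95, against 0.00 for all genes. Without E7 the same 35 members rose and 7 fell, with a median of 0.72, while 37.3% of all genes rose and 37.2% fell. Leaving out E1, E2 or E3 instead ended the calls of PSMA1 (adjusted p 0.0539 to 0.0678) and PSMD6 (0.0509 to 0.0745). The members that had not passed the test with E7 and fell without it were PSMA4, PSMD1, PSMG2, PSMD10 and PSME1.

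In HCC1937, 29 members rose, 5 fell (PSMA3, PSMB9, PSMC6, PSMD12 and PSME4) and 12 did not pass, against 32.7% of all genes that rose and 39.1% that fell. The median was 0.80, against -0.16 for all genes. When E7 was left out of the shared spread, each of the 46 members passed, 35 as higher and 11 as lower, against 38.1% and 43.3% of all genes. This follows the libraries themselves: in HCC1937 all 3 extract libraries lay above all controls for 35 members and below them for 11 (38.3% and 43.8% of all genes). In MDA-MB-231 the groups did not overlap for 35 members above and 4 below, with 7 overlapping (32.5% and 35.2% of all genes).

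Of the members, 29 rose in both lines, 2 fell in both and 7 passed in neither, while 24.3% of all genes rose in both lines and 25.3% fell in both. Without E7, 33 members rose in both lines (28.4% of all genes), and with the length and GC offset described below 33 did (27% of all genes). PSMD12 rose in MDA-MB-231 and fell in HCC1937. The log2 fold changes of the 46 members in the lines had a Pearson's r of 0.82 and a Spearman's rho of 0.79, a description over genes that share a complex, transcript length and GC content.

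**Figure D2:**
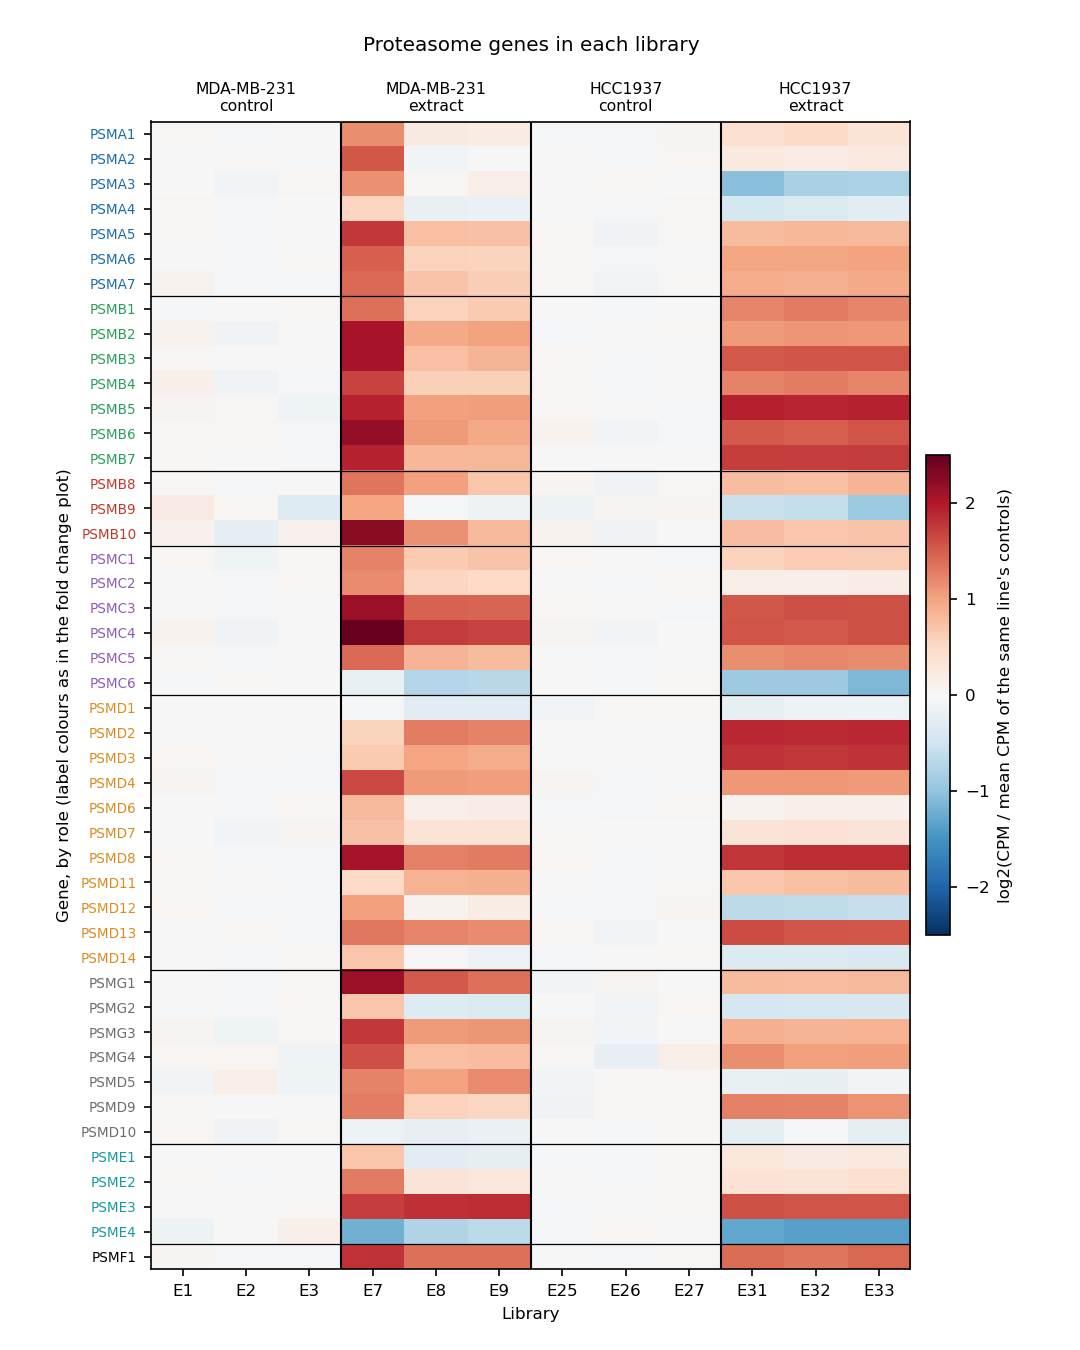
Rows are the 46 tested proteasome genes ordered by role, columns the 12 libraries, and colour is log2 of a library's CPM over the mean CPM of the controls of the same line (red higher, blue lower, to 2.5 either way). Red fills most rows in both extract groups, E7 is redder than E8 and E9, and PSMC6 and PSME4 are blue in all 6 extract libraries.

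A second fit took out, in each library, a smooth trend of the counts with transcript length and GC content (the length and GC offset), since the members are short: their median transcript is 1580 nt, against 3280 nt for all genes tested, with a GC content of 49.5% in both. With this offset 38 members rose and 2 fell in MDA-MB-231 (median 0.71, with 38.7% and 27.5% of all genes), and 35 rose and 5 fell in HCC1937 (median 0.78, with 38.1% and 30.8% of all genes). Of the members called higher without the offset, 33 of 35 in MDA-MB-231 and 26 of 29 in HCC1937 were also higher with it. Without the offset the members' fold changes went with GC content (Pearson's r 0.50 in MDA-MB-231 and 0.60 in HCC1937, over 46 genes) and less with log2 length (r -0.22 and -0.24).

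Every subunit of the constitutive beta ring rose in both lines. All 7 genes were higher with extract, with medians of 1.35 in MDA-MB-231 and 1.53 in HCC1937 on the log2 scale. All 7 also rose without E7 (median 0.84 in MDA-MB-231) and with the length and GC offset (0.75 and 0.92). The summed level of the ring was 1042 ± 25.6 CPM in MDA-MB-231 controls (SD, n = 3) and 1821, 1835 and 3767 CPM in the extract libraries, of which E7 is the highest. In HCC1937 it was 1114 ± 19.9 CPM and then 3131 ± 17.9 CPM.

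PSMB5, on chr14:23016543-23035230, minus strand, carries the chymotrypsin-like site that bortezomib binds. Its level was 125, 122 and 111 CPM in the MDA-MB-231 controls and 453, 244 and 245 CPM with extract. In HCC1937 it was 133, 131 and 129 CPM in controls and 504, 489 and 495 CPM with extract. The groups did not overlap in either line, and E7 is again the high library. PSMB5 rose 2.63-fold in MDA-MB-231 (log2 1.39 ± 0.20 SE, adjusted p = 6.55e-05, edgeR) and 3.78-fold in HCC1937 (1.92 ± 0.20, adjusted p = 3.87e-06), and without E7 the MDA-MB-231 rise was 1.04 ± 0.04.

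PSMB6, on chr17:4796144-4798503, carries the caspase-like site. In MDA-MB-231 it went from 147, 148 and 140.01 CPM to 664, 302 and 279 CPM, and in HCC1937 from 141, 125 and 129.8 CPM to 380.1, 373 and 391 CPM. Its log2 rises were 1.51 ± 0.26 and 1.53 ± 0.26, the first of them 1.01 without E7. PSMB7, on chr9:124353466-124415444, carries the trypsin-like site. It went from 194, 187 and 185 CPM to 716, 337 and 334 CPM in MDA-MB-231, and from 228, 226 and 225 CPM to 749.8, 753 and 762 CPM in HCC1937. Every extract library was thus above every control for all 3 catalytic subunits.

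The structural beta subunits PSMB1, PSMB2, PSMB3 and PSMB4 rose by 0.91 to 1.43 in MDA-MB-231 and by 1.08 to 1.56 in HCC1937. PSMB1 was the smallest change in MDA-MB-231, from 206, 217 and 220 CPM to 555, 318 and 338 CPM. PSMB2 was the largest there, from 106, 93.4 and 101 CPM to 416, 191 and 200 CPM, and the smallest in HCC1937, from 166, 169 and 171 CPM to 350.5, 362 and 356 CPM. PSMB3 was the largest in HCC1937, from 108, 102 and 106 CPM to 304, 313 and 312 CPM, with no overlap.

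The alpha ring, which forms the gate of the barrel, changed less evenly. In MDA-MB-231 4 of its 7 tested genes rose and 3 did not pass (median 0.70), and in HCC1937 3 rose, 1 fell and 3 did not pass (median 0.42). Without E7 the MDA-MB-231 median was 0.21, with 4 higher and 1 lower, and in HCC1937 5 were higher and 2 lower. With the length and GC offset all 7 rose in MDA-MB-231 (median 0.60), and 6 rose and 1 fell in HCC1937 (median 0.68). PSMA5 changed most in MDA-MB-231, from 109, 105 and 107 CPM to 363, 181 and 178 CPM (log2 1.17 ± 0.22, 0.76 without E7 and 2.42 with the offset). PSMA4 changed least there, at 108, 103 and 105 CPM in controls and 152, 92.4 and 93.5 CPM with extract, so that E7 lay above the controls and the other extract libraries below them (0.10, not passed, and 0.87, higher, with the offset).

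In HCC1937 PSMA6 changed most without the offset, from 131, 125 and 129 CPM to 255, 254 and 257 CPM (log2 0.99 ± 0.20, adjusted p = 8.65e-04, edgeR). With the length and GC offset PSMA5 changed more there (2.34, against 0.94 for PSMA6). PSMA3, on chr14:58244831-58272012, went the other way. Its level fell from 112, 114.8 and 113 CPM to 55.0, 64.9 and 65.2 CPM in HCC1937, 1.83-fold lower (-0.88 ± 0.23, adjusted p = 4.26e-03, edgeR). In MDA-MB-231 it read 62.1, 59.4 and 64.3 CPM in controls and 136, 64.0 and 69.7 CPM with extract, which did not pass (0.53 ± 0.23, and 0.11 without E7). PSMA7 was the alpha subunit with the highest level per transcript length in the controls of both lines, 316 and 279.7 CPM per kb.

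**Figure D3:**
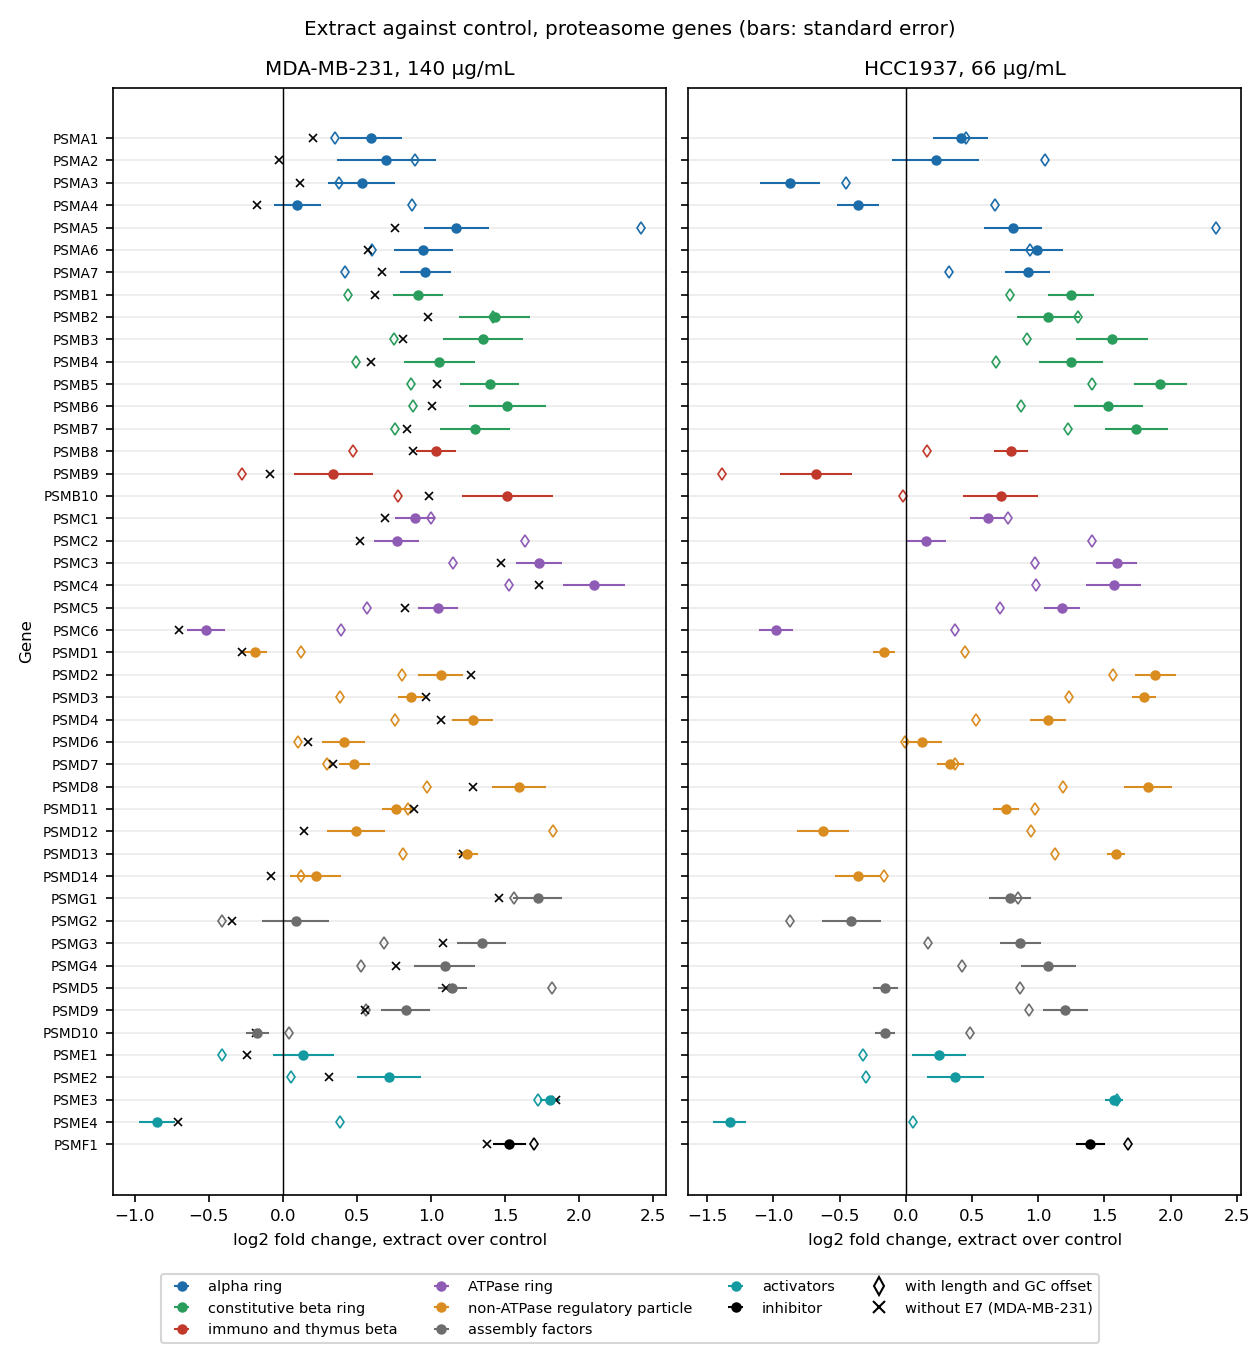
Filled points are log2 fold changes of extract over control with standard error bars for the 46 tested proteasome genes, by role, in MDA-MB-231 (left) and HCC1937 (right), open diamonds the same with the length and GC offset, and crosses the MDA-MB-231 values without E7. The constitutive beta ring lies to the right of 0 in all settings, and PSMC6 and PSME4 are left of 0 without the offset and right of it with the offset.

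Of the 3 immunoproteasome subunits PSMB8 and PSMB10 rose in both lines, and PSMB9 did not pass in MDA-MB-231 and fell in HCC1937. PSMB8, on chr6:32840717-32844703, which takes the place of PSMB5, read 18.7, 18.0 and 18.1 CPM in MDA-MB-231 controls and 46.0, 37.1 and 29.5 CPM with extract. In HCC1937 it read 52.0, 46.9 and 50.6 CPM and then 85.1, 83.5 and 90.2 CPM. It rose in both lines without overlap, by 1.04 ± 0.13 and 0.79 ± 0.13 on the log2 scale (adjusted p = 3.14e-05 and 1.63e-04, edgeR), the first 0.88 without E7. With the length and GC offset the HCC1937 rise was 0.16 and did not pass.

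PSMB9, on chr6:32844136-32859585, which takes the place of PSMB6, read 12.8, 11.5 and 8.86 CPM in MDA-MB-231 controls and 21.8, 10.6 and 10.1 CPM with extract, so the groups overlapped and the test did not pass (0.34 ± 0.27, and -0.08 without E7). In HCC1937 it fell from 8.22, 9.44 and 9.39 CPM to 6.15, 5.99 and 4.75 CPM, by 0.68 ± 0.27 on the log2 scale (adjusted p = 0.0409, edgeR). That call was lost when any 1 of the 6 HCC1937 libraries was left out (adjusted p 0.0554 to 0.144), and kept when E7 was left out (9.73e-05). With the length and GC offset PSMB9 was lower in HCC1937 (-1.39, adjusted p = 3.01e-06, edgeR) and did not pass in MDA-MB-231 (-0.28). The difference between the lines passed with the offset (-1.11) and not without it (-1.02). PSMB8 and PSMB9 overlap on opposite strands and the strand setting of the counting is not given in the sources used here, although the library kit marks strand, so whether reads of the shared stretch were told apart is unknown.

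PSMB10, on chr16:67934502-67937087, which takes the place of PSMB7, had the lowest level of the 3 in MDA-MB-231 controls. It went from 6.31, 4.90 and 6.27 CPM to 27.9, 12.9 and 10.2 CPM in MDA-MB-231, and from 13.3, 11.6 and 12.4 CPM to 21.2, 19.7 and 20.3 CPM in HCC1937. It rose by 1.51 ± 0.31 (0.99 without E7) and 0.72 ± 0.28 (adjusted p = 9.73e-04 and 0.0390, edgeR), but the HCC1937 call was lost without any 1 of its 6 libraries (0.062 to 0.102) and its value was -0.02 with the length and GC offset.

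Ratios of counts within a library, which need no scaling, set each immunoproteasome subunit against the constitutive one whose place it takes. In HCC1937 the libraries held 39.1, 35.7 and 39.2 PSMB8 counts per 100 PSMB5 counts in controls and 16.9, 17.1 and 18.2 with extract, a log2 difference of -1.13. In MDA-MB-231 the same ratio was 15.4 ± 0.897 and then 12.5 ± 2.57 (SD, n = 3), a difference of -0.32 with overlapping groups. PSMB9 counts per 100 PSMB6 counts were 5.82, 7.53 and 7.23 in HCC1937 controls and 1.62, 1.60 and 1.22 with extract, a log2 difference of -2.22.

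In MDA-MB-231 the PSMB9 to PSMB6 ratio was 8.70, 7.75 and 6.33 in controls and 3.29, 3.52 and 3.61 with extract, a log2 difference of -1.12 in which E7 does not stand out. PSMB9 and PSMB6 have transcripts of similar length and GC content (782 nt and 56.1%, against 852 nt and 54.9%), while PSMB10 and PSMB7 differ more in GC content (60.1% against 49.9%). PSMB10 counts per 100 PSMB7 counts fell from 5.503 ± 0.330 to 2.71 ± 0.113 in HCC1937 (log2 difference -1.02), and read 3.09 ± 0.405 and 3.58 ± 0.470 in MDA-MB-231 (0.21). With 3 libraries against 3 the exact two-sided permutation test cannot go below p = 0.1. That value was reached by the 3 ratios in HCC1937 and by PSMB9 to PSMB6 in MDA-MB-231, and the other 2 gave p = 0.3 (0.15 and 0.3 after Benjamini-Hochberg adjustment over the 6 exact tests).

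**Figure D4:**
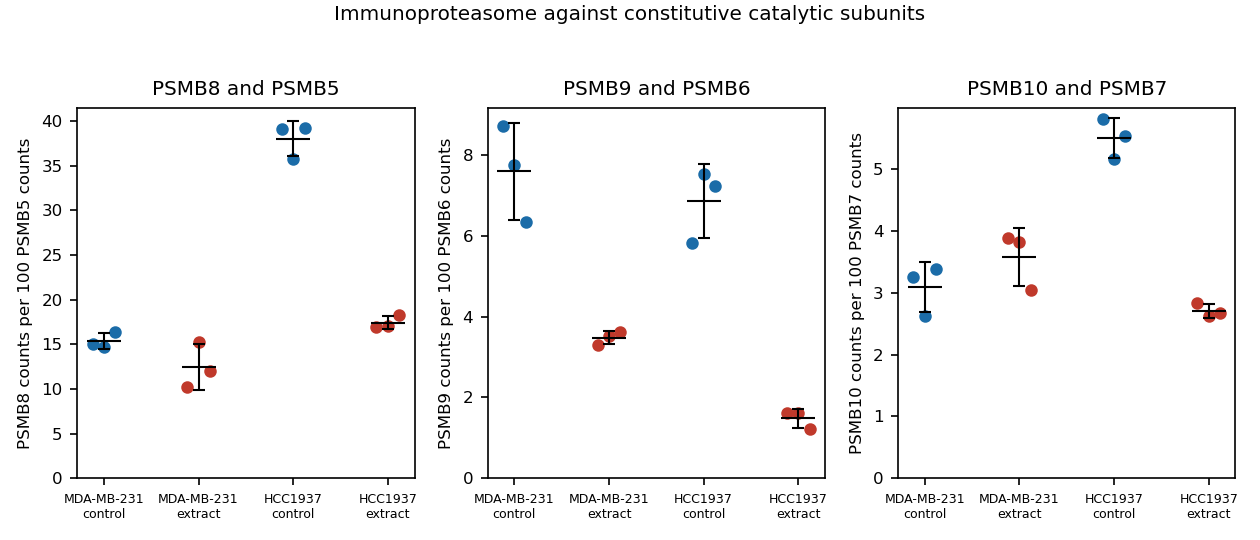
Each panel gives, for the 12 libraries in 4 groups, the counts of an immunoproteasome subunit per 100 counts of the constitutive catalytic subunit whose place it takes (blue controls, red extract, black the mean ± SD, n = 3). The HCC1937 extract libraries lie below their controls in all 3 panels, and the MDA-MB-231 ones in the PSMB9 and PSMB6 panel.

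In the ATPase ring, whose subunits unfold substrates and open the gate, 5 of 6 genes rose and 1 fell in MDA-MB-231 (median 0.97, 0.76 without E7), and 4 rose and 1 fell in HCC1937 (median 0.90). Without E7 the counts were 5 and 1 in both lines, and with the length and GC offset all 6 rose in both. PSMC4, on chr19:39971005-39981441, had the largest change of all members in MDA-MB-231 with all libraries and no offset. It went from 61.2, 54.2 and 57.1 CPM to 359.7, 194 and 186 CPM, 4.28-fold higher (log2 2.10 ± 0.21, adjusted p = 3.64e-06, edgeR), and 1.73 without E7. The activator PSME3 changed more without E7 (1.84), and PSMA5 with the length and GC offset (2.42, against 1.52 for PSMC4). PSMC3 changed most in HCC1937, from 158, 154 and 153 CPM to 458, 474 and 471 CPM (1.59 ± 0.15). Neither PSMC4 nor PSMC3 had overlapping groups in these comparisons.

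PSMC6, on chr14:52707172-52728587, was the ATPase that fell. Its level was 69.3, 73.5 and 71.8 CPM in MDA-MB-231 controls and 62.6, 43.1 and 44.4 CPM with extract, and 113, 112 and 116 CPM in HCC1937 controls and 60.3, 60.0 and 52.3 CPM with extract. It fell in both lines (log2 -0.52 ± 0.13 and -0.98 ± 0.13, adjusted p = 3.83e-03 and 2.73e-05, edgeR), the first -0.70 without E7. With the length and GC offset it was higher in both lines, at 0.39 and 0.37. Its transcript has the lowest GC content of the tested members, 36.8%.

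The non-ATPase subunits of the regulatory particle bind ubiquitin chains, remove them and hold the particle together. Of 11, 9 rose in MDA-MB-231 (median 0.77, 0.89 without E7), and in HCC1937 7 rose and 1 fell (median 0.75). Without E7 9 rose and 1 fell in MDA-MB-231 and 8 rose and 3 fell in HCC1937, and with the length and GC offset 8 and 9 rose and none of the 11 fell in either line. PSMD8 changed most in MDA-MB-231, from 132, 125 and 124 CPM to 534, 305 and 310.1 CPM (1.59 ± 0.18, 1.28 without E7). PSMD1, the largest scaffold subunit, had the lowest value there, at 129, 129.99 and 131 CPM in controls and 128, 107 and 107 CPM with extract (-0.19 ± 0.08), which did not pass.

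PSMD2, on chr3:184298709-184309054, is the second scaffold and was the most abundant member by CPM. It went from 619, 628 and 615 CPM to 919, 1502 and 1471 CPM in MDA-MB-231, where E7 was the lowest extract library, and from 686, 701 and 689 CPM to 2567, 2528 and 2563 CPM in HCC1937. It rose 2.09-fold and 3.69-fold (1.06 ± 0.15 and 1.88 ± 0.16, adjusted p = 7.23e-05 and 5.36e-07, edgeR), the first 1.27 without E7. PSMD4, a ubiquitin receptor, rose by 1.28 and 1.08. PSMD14, the deubiquitinase, read 0.22 and -0.36 and passed in neither line.

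PSMD12, on chr17:67337916-67366627, moved in opposite directions. It read 67.6, 64.0 and 63.7 CPM in MDA-MB-231 controls and 132, 69.1 and 74.2 CPM with extract, and 78.1, 79.1 and 85.0 CPM in HCC1937 controls and 51.5, 51.6 and 53.8 CPM with extract. It rose by 0.49 ± 0.19 in MDA-MB-231 (adjusted p = 0.0421, edgeR), a call that was lost without E1, E2 or E3 (0.0743 to 0.0997), with a value of 0.14 without E7. It fell by 0.63 ± 0.19 in HCC1937 (adjusted p = 0.0125), and with the length and GC offset it was higher in both lines, at 1.83 and 0.95.

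The assembly factors build the barrel and the regulatory particle and are not part of the finished protease. Of 7, 5 rose in MDA-MB-231 (median 1.09, 0.76 without E7) and 4 rose in HCC1937 (median 0.79). Without E7 2 also fell in MDA-MB-231 and 3 in HCC1937, and with the length and GC offset 5 rose and 1, PSMG2, fell in each line. PSMG1, which pairs with PSMG2 to line up alpha subunits, changed most in MDA-MB-231, from 17.7, 17.4 and 18.2 CPM to 78.5, 51.1 and 46.1 CPM (1.72 ± 0.16, adjusted p = 2.51e-06, edgeR), and 1.46 without E7. Its partner PSMG2 went from 51.7, 51.2 and 53.9 CPM to 85.0, 41.6 and 40.5 CPM in MDA-MB-231, a value of 0.09 that did not pass and of -0.34 without E7. PSMG2 had the lowest value in HCC1937, 46.7, 44.2 and 47.5 CPM in controls and 33.96, 35.2 and 35.0 CPM with extract (-0.41 ± 0.22), which did not pass with E7 in the shared spread.

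Among the chaperones of the ATPase ring, PSMD9 changed most in HCC1937, from 22.9, 25.04 and 25.1 CPM to 58.0, 57.6 and 52.8 CPM (1.21 ± 0.17). PSMD10, also known as gankyrin, had the lowest value of the class in MDA-MB-231, with 44.2, 40.4 and 43.8 CPM in controls and 38.4, 37.1 and 38.3 CPM with extract (-0.17 ± 0.08), and did not pass. PSMD5 rose in MDA-MB-231, from 35.5, 41.3 and 34.5 CPM to 88.1, 74.1 and 84.0 CPM (1.14 ± 0.10, 1.098 without E7). In HCC1937 it read 63.4, 67.3 and 67.5 CPM in controls and 57.7, 57.3 and 62.8 CPM with extract (-0.16 ± 0.09), which did not pass, was called lower with E7 out of the shared spread (-0.13, adjusted p = 0.0433, edgeR) and was called higher with the length and GC offset (0.86).

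The activators, which replace the ATPase particle at the ends of the barrel, split by type. PSME3, on chr17:42824385-42843758, forms the nuclear activator. It went from 144, 145 and 149 CPM to 486, 517 and 527 CPM in MDA-MB-231 and from 129, 133 and 135 CPM to 399, 393 and 391.97 CPM in HCC1937. It rose 3.49-fold and 2.98-fold (1.80 ± 0.07 and 1.58 ± 0.07, adjusted p = 2.09e-09 and 4.21e-09, edgeR). The value changed little without E7 (1.84) and with the length and GC offset (1.72 and 1.59), and E7 does not stand out.

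PSME1 and PSME2 form the interferon-inducible activator. PSME1 read 67.3, 67.0 and 66.5 CPM in MDA-MB-231 controls and 109, 56.1 and 56.4 CPM with extract, and 123, 124 and 130.5 CPM in HCC1937 controls and 154, 145 and 149.7 CPM with extract, and passed in neither line (0.14 and 0.25). With the length and GC offset it was called lower in both (-0.41 and -0.32). PSME2 rose in MDA-MB-231, from 78.4, 75.3 and 75.8 CPM to 189, 95.99 and 93.1 CPM (0.72 ± 0.22, 0.31 without E7, 0.05 with the length and GC offset, which did not pass). In HCC1937 PSME2 read 139.6, 135 and 142 CPM and then 178, 176 and 186 CPM, without overlap, and its 0.37 ± 0.21 passed when E7 was left out of the shared spread, whereas with the length and GC offset it was called lower (-0.30, adjusted p = 0.0273, edgeR).

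PSME4, on chr2:53864067-53970840, the large single-chain activator, fell in both lines. It read 75.0, 80.8 and 88.8 CPM in MDA-MB-231 controls and 35.6, 48.3 and 51.3 CPM with extract. In HCC1937 it read 95.1, 99.7 and 95.6 CPM and then 39.5, 38.0 and 38.0 CPM. The falls were 1.81-fold and 2.51-fold (-0.85 ± 0.12 and -1.33 ± 0.12, adjusted p = 6.96e-05 and 1.33e-06, edgeR), and the first was -0.71 without E7. It is the longest member transcript, 7099 nt, and with the length and GC offset its value was 0.38 (higher) in MDA-MB-231 and 0.06 (not passed) in HCC1937.

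The inhibitor PSMF1, on chr20:1113263-1189415, rose in both lines. It read 62.6, 57.8 and 58.9 CPM in MDA-MB-231 controls and 208, 154 and 155 CPM with extract, and 129.6, 128 and 134 CPM in HCC1937 controls and 343, 332 and 354 CPM with extract. Its rises were 1.53 ± 0.11 and 1.39 ± 0.11 (adjusted p = 2.50e-07 and 3.53e-07, edgeR), 1.38 in MDA-MB-231 without E7, and 1.70 and 1.68 with the offset.

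Per transcript length, the levels kept a wide range. In MDA-MB-231 controls they ran from 4.78 CPM per kb for PSMB10 to 316 for PSMA7, with a median of 44.4. In HCC1937 controls they ran from 8.75 for PSMD9 to 279.7 for PSMA7, with a median of 52.7. With extract PSME4 was the lowest member in both lines, at 6.35 and 5.43 CPM per kb. The highest was PSMA7 in MDA-MB-231 (615 ± 199 CPM per kb) and PSMB7 in HCC1937 (771 ± 6.67), and in HCC1937 PSMD2 followed closely at 740 ± 6.19.

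The extract effect differed between the lines for 8 members, by a test of the difference itself (HCC1937 minus MDA-MB-231). PSMD2 (0.82 ± 0.21), PSMD3 (0.93 ± 0.12) and PSMD13 (0.34 ± 0.10) were higher in HCC1937, against 11.5% of all genes. PSMA3 (-1.41 ± 0.32), PSMD5 (-1.30 ± 0.13), PSMD12 (-1.12 ± 0.27), PSMG1 (-0.93 ± 0.23) and PSMC2 (-0.61 ± 0.21) were lower, against 20.6% of all genes. PSMD3 went from 108, 104 and 100.1 CPM to 164, 206 and 199 CPM in MDA-MB-231 and from 158, 161 and 157 CPM to 559, 538 and 556 CPM in HCC1937. PSMD13 went from 139.14, 142 and 134 CPM to 344, 323 and 316 CPM in MDA-MB-231, and from 97.8, 91.1 and 96.1 CPM to 295, 283 and 278 CPM in HCC1937. All extract libraries of both genes lay above their controls.

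PSMC2 went from 59.5, 57.5 and 61.2 CPM to 134, 85.6 and 84.0 CPM in MDA-MB-231, and from 87.5, 86.3 and 91.3 CPM to 97.9, 96.5 and 101 CPM in HCC1937, and its difference was lost without any 1 of the 9 libraries other than E7, E8 and E9 (adjusted p 0.075 to 0.101).

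Without E7 the same 8 differences were called, and 19 members were higher and 11 lower in all (24.7% and 33.3% of all genes). The added calls included 6 of the 7 constitutive beta subunits, all higher in HCC1937. Their differences without E7 were 0.90 ± 0.06 for PSMB5, 0.55 ± 0.06 for PSMB6 and 0.92 ± 0.05 for PSMB7. With all libraries the same values were 0.53 ± 0.27, 0.02 ± 0.36 and 0.45 ± 0.33 and did not pass. With the length and GC offset 8 members were higher and 10 lower (18.4% and 21.5% of all genes), and 7 of the 8 differences, all but PSMC2, were called.

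Untreated, the lines already differed in part of the proteasome. In HCC1937 controls 18 members were higher and 7 lower than in MDA-MB-231 controls, that is 39.1% and 15.2% of the members tested, against 38.7% and 36.7% of all genes. In this fit the share that was higher is near that of all genes, and the share that was lower is smaller. With E7 out of the shared spread the counts were 26 and 17. These are 56.5% and 37% of the members tested, against 43.4% and 43.4% of all genes, so the first share is then above that of all genes. PSMG3, an assembly chaperone, was 3.28-fold higher in HCC1937 (13.0 to 42.5 CPM on average, log2 1.71 ± 0.16), PSMB8 2.73-fold (1.45 ± 0.13), PSMF1 2.18-fold (1.13 ± 0.11), PSMB10 2.13-fold (1.09 ± 0.30) and PSMD10 2.09-fold (1.06 ± 0.08). PSMD9 was 2.51-fold lower (-1.33 ± 0.17) and PSMD6 1.81-fold lower (-0.85 ± 0.15).

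The interferon-inducible activator genes PSME1 (0.91 ± 0.21) and PSME2 (0.86 ± 0.22) were also higher in HCC1937 controls, while PSMB9 did not pass (-0.29 ± 0.27). PSMB9 was called lower there with E7 out of the shared spread (-0.32) and with the length and GC offset (-0.60). Of the constitutive beta ring, only PSMB2 passed with all libraries and no offset (0.76 ± 0.23). With E7 out of the shared spread all 7 passed, 4 higher and 3 lower, with values from -0.33 for PSMB1 to 0.72 for PSMB2. With the length and GC offset PSMB2 and PSMB7 were higher (0.89 and 0.38) and PSMB6 was lower (-0.39). Of the 7 members called lower with all libraries and no offset, PSMA1, PSMC1 and PSMC5 lost their calls when most single control libraries were left out. This brought the count to between 3 and 5. With the length and GC offset 24 were higher and 12 lower (42.1% and 40% of all genes).

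**Figure D5:**
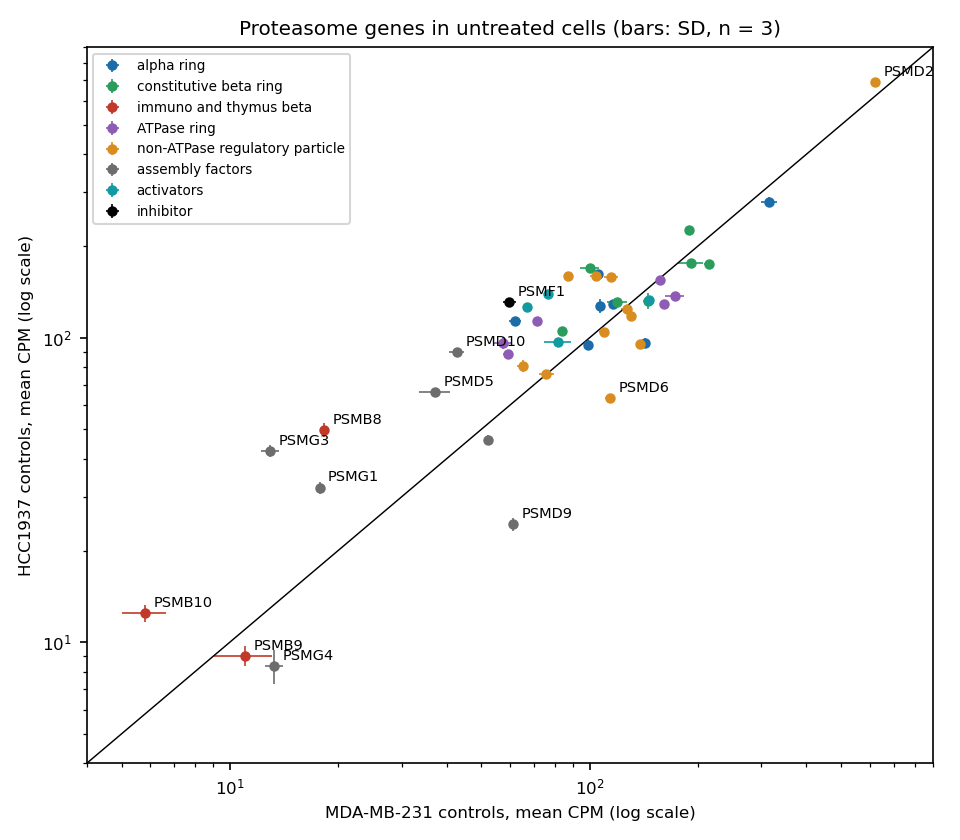
Mean CPM of the 46 tested proteasome genes in HCC1937 controls against MDA-MB-231 controls, both axes logarithmic, with SD bars (n = 3) and the line of equal levels. PSMB8, PSMB10, PSMG3 and PSMF1 lie above the line and PSMD9 and PSMD6 below it, and of the constitutive beta subunits PSMB2 lies farthest from it, 1.69-fold higher in HCC1937.

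Genes that work with the proteasome were read from 4 lists. Their counts are to be read against the shares of all genes, 33% higher and 32.8% lower in MDA-MB-231 and 32.7% and 39.1% in HCC1937. Several are close to these without the length and GC offset. With the offset the shares of all genes were 38.7% higher and 27.5% lower in MDA-MB-231, and 38.1% and 30.8% in HCC1937. Of 14 proteasome-associated genes 6 rose and 3 fell in MDA-MB-231 (median 0.41, and 7 and 5 with a median of 0.09 without E7), and 5 rose and 5 fell in HCC1937 (median 0.34). With the length and GC offset 12 rose and 2 fell in MDA-MB-231 (median 1.05), and 12 rose and 1 fell in HCC1937 (median 0.74). ADRM1, a ubiquitin receptor of the regulatory particle, stood at 152 ± 6.47 CPM in MDA-MB-231 controls and 609.8 ± 191 CPM with extract (SD, n = 3), and at 112 ± 4.87 and 412 ± 6.12 CPM in HCC1937, with log2 rises of 2.00 ± 0.17 (1.72 without E7) and 1.88 ± 0.17. PITHD1 rose by 1.57 ± 0.11 and 1.22 ± 0.11. UCHL5, the deubiquitinase that ADRM1 holds, fell in both lines (-0.70 ± 0.13 and -1.60 ± 0.13), and with the length and GC offset it was higher in both lines (1.20 and 0.38).

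Of 10 genes that control transcription of subunit genes, 3 rose and 4 fell in MDA-MB-231 (median 0.14, and 5 and 5 with 0.24 without E7), and 3 rose and 5 fell in HCC1937 (median -0.29). With the length and GC offset 4 rose and 3 fell in MDA-MB-231 (median 0.26), and 3 rose and 3 fell in HCC1937 (median -0.04). MAFF, a small MAF partner, rose by 0.88 ± 0.07 and 1.29 ± 0.07. BACH1, a repressor at the same elements, fell in both lines (-2.44 ± 0.15 and -1.91 ± 0.15), and with the length and GC offset its HCC1937 value of -0.25 did not pass. NFE2L1, NFE2L2 and DDI2, chosen after their values were seen, were read beside them. NFE2L1 stood at 338 ± 8.71 and 459.8 ± 192 CPM in MDA-MB-231, which did not pass (log2 0.45 ± 0.24) but was called higher without E7 (0.76 ± 0.04), and rose from 184 ± 6.34 to 289.6 ± 9.29 CPM in HCC1937 (0.65 ± 0.25, adjusted p = 0.0318, edgeR). With the length and GC offset NFE2L1 did not pass in MDA-MB-231 (0.26) and was higher in HCC1937 (0.45). NFE2L2 fell in both lines (-1.66 ± 0.17 and -2.26 ± 0.18, the first -1.95 without E7). DDI2 fell in both lines (-1.45 ± 0.34 and -1.76 ± 0.33) and passed in neither with the offset (-0.18 and -0.40). NFE2L1 is controlled largely as a protein, which these data do not measure.

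Of 14 genes for ubiquitin supply and shuttling, 8 rose and 3 fell in MDA-MB-231 (median 0.56, and 9 and 4 with 0.36 without E7), and 8 rose and 4 fell in HCC1937 (median 0.75). With the length and GC offset 9 rose and 2 fell in MDA-MB-231 (median 0.57), and 12 rose and 1 fell in HCC1937 (median 0.55). UBA6, an activating enzyme of ubiquitin, fell in both lines (-2.55 ± 0.13 and -2.60 ± 0.13), and by less with the length and GC offset (-0.37 and -0.52). Of 9 partners of the immunoproteasome in antigen processing, 2 rose and 3 fell in MDA-MB-231 (median 0.05, and 3 and 5 with -0.14 without E7), and 1 rose and 3 fell in HCC1937 (median -0.01). With the length and GC offset 2 rose and 3 fell in MDA-MB-231 (median -0.05), and 3 rose and 2 fell in HCC1937 (median 0.06). ERAP2, a peptide trimmer, fell in both lines (-2.75 ± 0.13 and -2.0025 ± 0.10), and by less with the length and GC offset (-1.56 and -0.59).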

How the data were processed

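Poly-T selected RNA of 12 libraries was sequenced with a stranded kit, per the labels' protocols. Per the submitters' processing notes the authors used FastQC 0.12.1, fastp 0.23.4, Salmon 1.10.3 on GRCh38 and DESeq2 in R 4.4.1, while annotation release, strand setting and summing to genes were not given in the sources used here. In the deposited table the authors gave expected counts per gene, 52.8% of them not whole, which were rounded to whole counts here. The unnamed row (1 of 19517) held no reads and was left out.

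Groups were taken from the sample titles, since the cell line field carries running numbers. In R 4.3.3, edgeR 4.0.16 (filterByExpr, TMM, quasi-likelihood test, 1 model of 4 groups, Benjamini-Hochberg over 14133 genes, threshold 0.05) gave 4 comparisons. CPM values carry the SD over 3 libraries, folds their SE. TMM takes most genes as unchanged, so changes are relative to other genes. TMM left the median of all genes at -0.16 for the HCC1937 effect and for the difference between lines, against -0.06 and -0.05 with DESeq2's factors, a shift that other genes and members share.

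Transcript length, GC content and positions are from GENCODE 29 on GRCh38 (principal coding transcript, found for 99.4% of tested genes). The length and GC offset is a smooth surface per library (mgcv 1.9.3). Where a gene is read mostly from another transcript than the one used, its offset is off. Scripts were tested on simulated data. Alternatives were DESeq2 1.42.0, its size factors, no filter, a robust fit, only the libraries compared, the offset, and leaving out each library; those with E7 out of the shared spread, or out together with the offset, were added after seeing the data. Floors cover counting error only.

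The members, roles and gene lists were chosen with earlier results of these data known. All members are accounted for. Library values are given for PSMB5 to PSMB10, PSME1 to PSME4, PSMF1, and in each other class the members with the largest and smallest change in each line, plus PSMD3, PSMD13, PSMD5 and PSMC2, chosen after their values were seen. Largest and smallest refer to the fit with all libraries and no offset, and other fits can rank members otherwise. Of each partner list the genes with the 2 smallest p per line are named, except for some items not reported here.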

Additional observations from a re-analysis of the deposited data

Results flagged for a closer look

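The extract effect of 8 members differed between HCC1937 and MDA-MB-231 by the test of the difference itself (edgeR's quasi-likelihood test, adjusted over all genes tested). Differences are HCC1937 minus MDA-MB-231 on the log2 scale. With all libraries and no offset, 6.5% of the members tested were higher and 10.9% lower, both below the shares of all genes, 11.5% and 20.6%. This order depends on the fit. Without E7 41.3% of the members were higher and 23.9% lower, against 24.7% and 33.3% of all genes. With the length and GC offset 8 of 46 were higher and 10 lower, against 18.4% and 21.5% of all genes. The effect was larger in HCC1937 for PSMD2 (0.82), PSMD3 (0.93) and PSMD13 (0.34). It was smaller for PSMA3 (-1.41), PSMD5 (-1.30), PSMD12 (-1.12), PSMG1 (-0.93) and PSMC2 (-0.61). Leaving out E2 or E26 ended the call of PSMD13 (adjusted p 0.0551 to 0.0624, edgeR). The call of PSMC2 was lost without any 1 of the 9 libraries other than E7, E8 and E9 (adjusted p 0.075 to 0.101, edgeR). With the length and GC offset the PSMC2 difference was -0.23 and did not pass. Line, medium and concentration cannot be told apart in these differences, and no group is large enough for a single library to be tested as standing apart.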

How the results depend on the processing

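No paired analysis was possible because the groups share no replicate numbers in the titles. The numbers of members that rose in each line stayed within 1.5 times of 35 (MDA-MB-231) and 29 (HCC1937) in every alternative run, and the ratio differences kept their direction. Among called values, the offset for length and GC turned the direction of PSMC6 (0.39 in MDA-MB-231, 0.37 in HCC1937), PSME4 (0.38 and 0.056), UCHL5 (1.20 and 0.38), PSMD12 (0.95) and PSMB10 (-0.024) in HCC1937, and UBA6 between the controls (0.077). It also gave passing calls of the opposite sign for members that had not passed: PSME1 in both lines, PSMG2 in MDA-MB-231, and PSME2, PSMA4, PSMD1, PSMD5 and PSMD10 in HCC1937. The offset gave 8 higher and 10 lower members for the difference between lines (18.4% and 21.5% of all genes), and 12 lower between controls (40% of all genes). Together with leaving out E7 it gave 4 lower members in MDA-MB-231, 22 higher and 13 lower for the difference, and 28 higher and 17 lower between controls. Of the 14054 genes fitted with the offset, 4255 were then lower in MDA-MB-231. For the difference 3861 of these genes were higher and 4031 lower, and between controls 6378 and 6049. With E7 out of the shared spread there were 11 lower in HCC1937 and 17 between controls (43.3% and 43.4% of all genes). With only the libraries compared there were 9 and 17, since E7 then no longer widens the error. Shares of all genes are not given for the fits with only the libraries compared or with DESeq2. DESeq2 gave 4 lower members in MDA-MB-231; with DESeq2 or its size factors the PSMB9 call in HCC1937 and the PSMC2 difference were lost (the cause was not tested).

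Leaving out 1 of the libraries compared at a time (E7 is in no HCC1937 or control comparison), members higher and lower numbered 32 to 37 and 2 to 7 in MDA-MB-231, 28 to 28 and 4 to 4 in HCC1937, 2 to 19 and 4 to 11 for the difference, and 18 to 18 and 3 to 5 between controls. Without E7, 37.3% and 37.2% of all genes were higher and lower in MDA-MB-231, and 24.7% and 33.3% for the difference. Shares of all genes are not given for the other fits, so these counts describe only how stable the calls were. The log2 ratio differences ran from -1.17 to -1.10 (PSMB8 to PSMB5), -2.33 to -2.08 (PSMB9 to PSMB6) and -1.07 to -0.98 (PSMB10 to PSMB7) in HCC1937, and from -0.47 to -0.18, -1.24 to -1.01 and 0.10 to 0.33 in MDA-MB-231. Depth limits PSMB9 and PSMB10 most, with 89 to 539 counts in a library.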
